A study of Mus musculus with 28 samples.

Results

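Dnmt3a, Dnmt3b and Dnmt3l are the mouse genes of the de novo DNA methylation machinery, and their RNA was followed through germ cell development and in cultured germ and stem cells. All 3 genes were found on the array through the RefSeq accession attached to each probe. They were read by 19 probes, 6 for Dnmt3a, 9 for Dnmt3b and 4 for Dnmt3l, of the 43289 probes kept. These probes stood for 38492 entries, called genes below, of which 13019 are matched symbols. Each other entry is an unmatched probe identifier, so the same gene can be counted more than once in the shares of all genes. No probe of the 3 genes was marked non-uniform on any array, and levels are given for the probe of each gene that was brightest on average, with the other probes beside it.

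Single-colour Agilent expression arrays were run on 28 samples in 14 groups of 2. Male and female primordial germ cells (PGCs), the embryonic founders of sperm and eggs, were sampled at E10.5, E13.5 and E17.5 (days of embryonic development) from BDF1 crosses with the deGFP reporter line TgN(deGFP)18Imeg. Spermatogonia and oogonia came from BDF1 crosses with the reporter line Tg(Mvh-Venus)1Rbrc, and no age was stated for them. Embryonic germ (EG) cells, male and female, are lines grown in culture from PGCs, here of 12.5 dpc embryos of Rb(X.2)2Ad by 129/Sv crosses. Embryonic stem (ES) cells were represented by 1 line of each sex, the male TMA5, a hybrid of TgN(deGFP)20Imeg and MSM/Ms, and the female no5 of 129/Sv, so sex, strain and line cannot be told apart there. Germline stem (GS) cells, cultured cells of spermatogonial type, were DBA/2, and whole adult testis was C57BL/6J. Strain therefore differed between most cell types, while the 6 PGC groups shared one cross. Whether both arrays of a group represent different animals or cultures is not stated, so the p-values measure only how far these samples spread, and that spread may be technical.

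De novo methyltransferases place methyl groups on cytosines of unmethylated CpG sites, and in the germ line they rebuild the pattern that PGCs erase earlier. Dnmt3a and Dnmt3b encode the catalytic enzymes, and Dnmt3l encodes a related protein without catalytic activity that binds them and stimulates their action. In mice the male germ line is remethylated before birth, in prospermatogonia, whereas oocytes gain methylation after birth as they grow. The Dnmt3a gene has an internal start site that gives a shorter protein known as Dnmt3a2, described in mouse germ and ES cells.

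The windows around the annotated starts of the 3 genes are shown because they differ in CpG content, the substrate of the enzymes that these genes encode. Each window runs from 250 bases before to 50 bases after a start, on the plus strand, from RefSeq on GRCm38.p6, and capitals mark every CG. Dnmt3a has starts on chromosome 12 at an upstream site (chr12:3806730-3807029) and at the internal site (chr12:3891494-3891793).
Dnmt3a upstream: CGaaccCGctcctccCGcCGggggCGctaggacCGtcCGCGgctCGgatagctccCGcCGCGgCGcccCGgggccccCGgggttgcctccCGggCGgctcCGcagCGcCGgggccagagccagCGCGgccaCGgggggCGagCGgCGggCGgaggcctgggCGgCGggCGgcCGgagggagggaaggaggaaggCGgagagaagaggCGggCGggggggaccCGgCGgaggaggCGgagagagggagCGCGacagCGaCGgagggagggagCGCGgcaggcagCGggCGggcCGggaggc
Dnmt3a internal: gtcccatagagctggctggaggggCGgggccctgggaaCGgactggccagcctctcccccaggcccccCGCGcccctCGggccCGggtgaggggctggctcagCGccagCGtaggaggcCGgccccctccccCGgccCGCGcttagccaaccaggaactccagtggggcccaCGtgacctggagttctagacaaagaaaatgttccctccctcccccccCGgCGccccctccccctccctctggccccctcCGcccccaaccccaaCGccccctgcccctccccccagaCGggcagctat
The start of Dnmt3b lies on chromosome 2 (chr2:153649199-153649498), and the 3 starts of Dnmt3l lie on chromosome 10 (chr10:78042037-78042336, chr10:78049592-78049891 and chr10:78055085-78055384).
Dnmt3b: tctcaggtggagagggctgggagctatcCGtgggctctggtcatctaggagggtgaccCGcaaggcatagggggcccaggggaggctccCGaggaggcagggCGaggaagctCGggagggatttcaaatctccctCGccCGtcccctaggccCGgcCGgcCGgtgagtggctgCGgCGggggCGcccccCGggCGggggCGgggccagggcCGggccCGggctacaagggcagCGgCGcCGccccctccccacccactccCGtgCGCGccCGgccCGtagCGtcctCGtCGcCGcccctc
Dnmt3l 1: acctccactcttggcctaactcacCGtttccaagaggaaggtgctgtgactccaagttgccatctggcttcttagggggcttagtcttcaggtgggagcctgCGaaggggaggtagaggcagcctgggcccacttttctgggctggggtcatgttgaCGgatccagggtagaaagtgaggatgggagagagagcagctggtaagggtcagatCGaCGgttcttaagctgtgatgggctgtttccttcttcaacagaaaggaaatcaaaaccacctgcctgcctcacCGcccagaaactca
Dnmt3l 2: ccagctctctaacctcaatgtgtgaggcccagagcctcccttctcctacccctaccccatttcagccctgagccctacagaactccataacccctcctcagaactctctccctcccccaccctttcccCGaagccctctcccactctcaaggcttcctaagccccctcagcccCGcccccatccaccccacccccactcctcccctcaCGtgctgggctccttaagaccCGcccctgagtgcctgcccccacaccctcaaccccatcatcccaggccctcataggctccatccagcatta
Dnmt3l 3: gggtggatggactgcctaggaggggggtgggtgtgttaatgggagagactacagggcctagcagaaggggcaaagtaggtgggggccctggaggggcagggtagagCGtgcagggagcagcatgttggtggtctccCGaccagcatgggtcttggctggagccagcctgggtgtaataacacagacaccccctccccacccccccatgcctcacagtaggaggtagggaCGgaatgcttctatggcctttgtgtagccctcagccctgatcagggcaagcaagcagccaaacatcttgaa

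The upstream Dnmt3a window held 46 CpG sites and the internal one 18, against a median of 7 over 32851 mouse start windows of the same length. Another upstream Dnmt3a start, whose window overlaps the one printed, had 47. The Dnmt3b window held 30 CpG sites, and 88.3% of windows had fewer. The 3 Dnmt3l windows held 6, 4 and 3, all under the median. Both strands were searched for 3 motifs. The internal Dnmt3a window and the second Dnmt3l window each held 1 copy of the E-box CACGTG, which is present in 7.15% of windows and contains one of the capitalised CG pairs. The GC box GGGCGG, present in 35.7% of windows, occurred 6 times in the printed upstream Dnmt3a window, 2 times in the internal one, 4 times in the Dnmt3b window and 1 and 2 times in the first and second Dnmt3l windows. The TATA box TATAAA, present in 13.6% of windows, was in none of them. These matches describe letters in the windows, and the arrays do not show from which start a transcript began.

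Levels below are log2 processed signal minus the 75th percentile of 7227 probes that were well above background on every array, so 0 is the same rank on each array. A level serves to compare groups for one probe and not one gene with another. Between 17.8% (E10.5 male PGC replicate 1) and 76.8% (testis replicate 1) of all probes were well above background, under 50% on 16 arrays, and no spot was saturated. All 5 germ cell marker genes on the array, among them Ddx4 and Dazl, were well above background on each PGC array except E10.5 male replicate 1 (4 of 5). Their summed level was -2.0 to -1.08 in EG and ES cells, against 1.77 to 4.17 in PGCs, 3.71 and 3.77 in oogonia and 3.83 and 3.71 in spermatogonia. All 5 pluripotency markers on the array, among them Pou5f1 and Nanog, were well above background in every EG and ES sample.

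Dnmt3l, the cofactor, was not well above background in nearly all female germ cell samples, and was highest in late male PGCs, EG cells and ES cells. Its level was 3.43 and 3.46 in the 2 E17.5 male PGC samples, 3.29 and 3.38 in female EG cells and 2.20 and 2.22 in male EG cells. ES cells had 2.68 and 2.58 in the male line and 2.19 and 1.99 in the female line. Spermatogonia had 1.52 and 1.51, testis -1.26 and -1.63, GS cells -3.69 and -4.58, and E13.5 male PGCs -4.56 and -4.33. In these 9 groups every sample was well above background, and the samples of neighbouring groups in that order overlapped for GS cells and E13.5 male PGCs only. The other 5 groups were E10.5 PGCs of both sexes, E13.5 and E17.5 female PGCs and oogonia, with values from -11.11 (oogonia replicate 1) to -5.73 (E10.5 male replicate 1). Of those samples only E13.5 female replicate 2, at -7.41, was well above background. Group means spanned 14.17 log2 units, and the 4 Dnmt3l probes ran alike over the 14 groups (each r = 1.00 with the brightest, as a description).

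Dnmt3a, a catalytic enzyme gene, was brightest in late male germ cells. Its level was -0.67 and -0.35 in E17.5 male PGCs and -0.84 and -0.69 in spermatogonia. E17.5 female PGCs followed with -2.47 and -1.95 and oogonia with -3.13 and -2.65. The samples of these 4 neighbours did not overlap. The male ES line had -3.36 and -3.52 and GS cells -3.69 and -3.19. PGCs of E13.5 had -3.33 and -4.49 in males and -3.37 and -3.59 in females, and E10.5 males had -3.25 and -3.87. From the male ES line down to the female ES line (-4.13 and -4.33) each group overlapped its neighbour in the order, including testis (-4.09 and -4.30) and female EG cells (-4.42 and -3.98). Male EG cells (-4.39 and -4.46) and E10.5 female PGCs (-5.02 and -4.37) closed the order and overlapped each other. Of all 28 samples only E10.5 female replicate 1 was not well above background, and group means spanned 4.18 log2 units.

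Dnmt3b, the other catalytic enzyme gene, was brightest in cultured pluripotent cells. It had 2.87 and 3.01 in the male ES line, 2.40 and 1.69 in male EG cells, 2.02 and 1.87 in the female ES line and 1.87 and 1.00 in female EG cells. GS cells followed with -0.05 and 0.23, then spermatogonia with -0.92 and -0.95 and E17.5 male PGCs with -1.37 and -0.87. Oogonia had -1.28 and -1.62, and E17.5 female PGCs had -1.76 and -1.93. The 4 late germ cell groups thus lay close together, and spermatogonia overlapped E17.5 males, which overlapped oogonia. E13.5 PGCs had -2.55 and -2.55 in males and -3.13 and -2.83 in females, and testis, with -3.06 and -3.02, overlapped the E13.5 females. E10.5 PGCs were lowest with -4.10 and -4.29 in males and -4.11 and -4.49 in females, which overlapped. Only E10.5 male replicate 1 was not well above background, and group means spanned 7.24 log2 units.

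**Figure D1:**
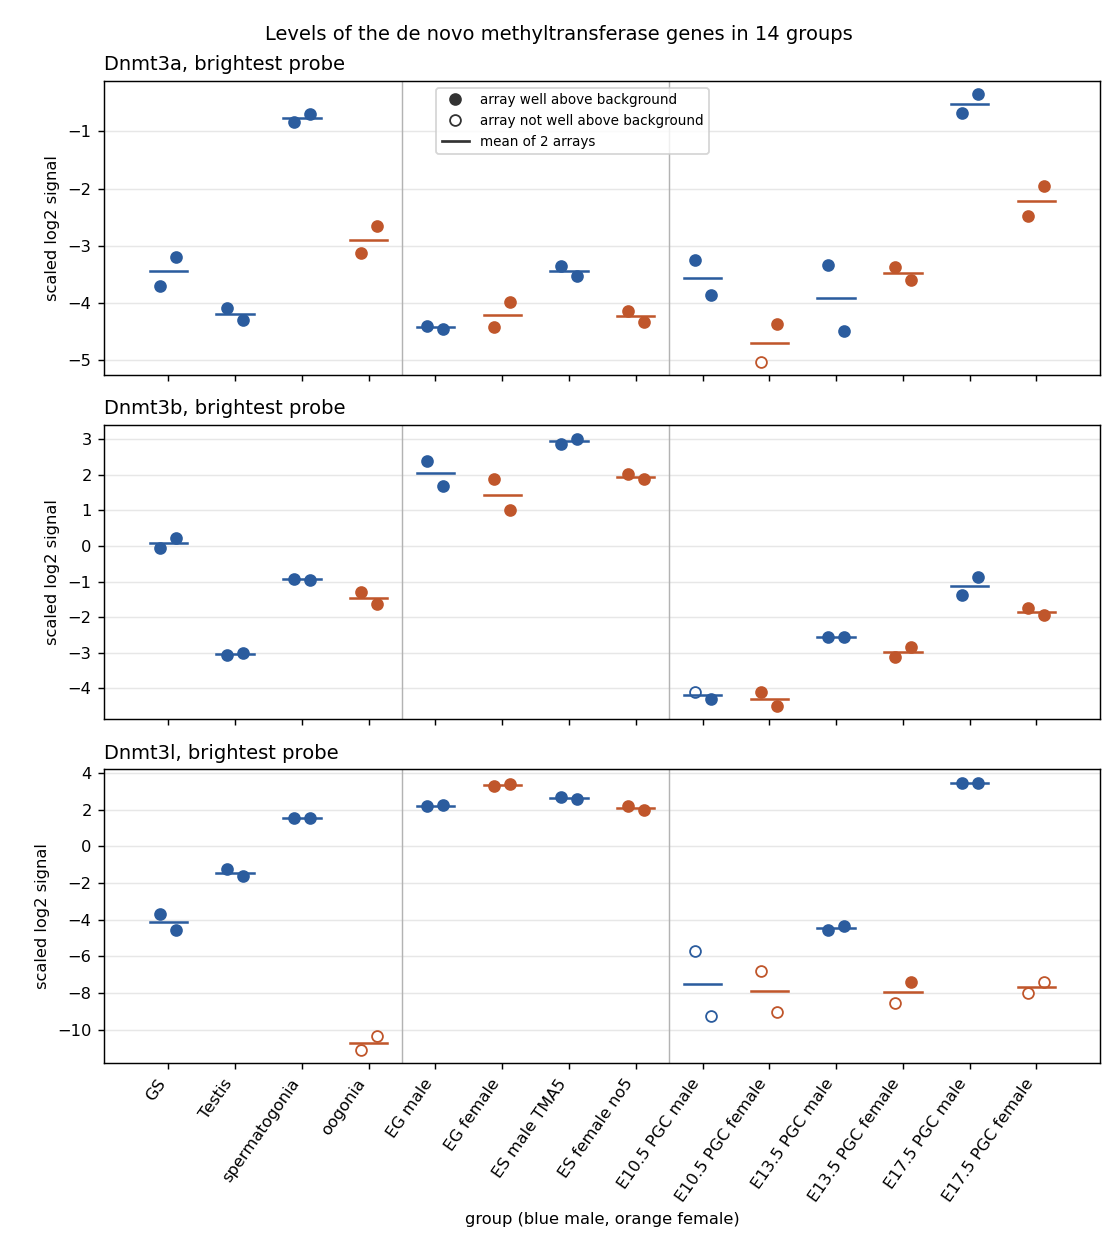
Levels of the brightest Dnmt3a, Dnmt3b and Dnmt3l probes in all 28 samples, as scaled log2 signal on the vertical axis and the 14 groups on the horizontal axis. Each point is 1 array, open where not well above background, and each line is the mean of 2 arrays. Dnmt3l is high in E17.5 male PGCs (3.43 and 3.46) and low in E17.5 female PGCs (-8.0 and -7.38).

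The first question was how the 3 genes moved with stage in PGCs of each sex. In males between E13.5 and E17.5 all 3 rose. Dnmt3a rose 10.5-fold (log2 difference 3.40 ± 0.38 SE, limma adjusted p = 8.94e-06), with all 6 of its probes called and a range of 2.52 to 4.13. Dnmt3b rose 2.70-fold (1.43 ± 0.33, adjusted p = 0.00257), with 7 of 9 probes called. Dnmt3l rose 237-fold (7.89 ± 0.83, adjusted p = 4.30e-06), with 4 of 4 probes between 7.44 and 7.89. These 3 calls stand beside 41.8% of 15521 genes called in this comparison, 29.6% as higher and 12.2% as lower at E17.5. Within the first and second scan day the log2 differences were 2.66 and 4.13 for Dnmt3a, 1.18 and 1.69 for Dnmt3b, and 8.0 and 7.78 for Dnmt3l. The Dnmt3b call was lost with the slide as a block in the PGC samples (1.44, adjusted p = 0.0831) and in the deposited scaling (1.26).

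In females over the same interval, Dnmt3a rose by 1.27 ± 0.38 (adjusted p = 0.0186) and Dnmt3b by 1.14 ± 0.33 (adjusted p = 0.0140), with 32.6% of 14270 genes called, 18.1% as higher and 14.5% as lower. Dnmt3l was not well above background on both samples of either female stage and was not tested. Both female calls rested on few samples. Dnmt3a was no longer called without E13.5 female replicate 1 (1.38, adjusted p = 0.0528) or 2 (1.16, 0.109) or E17.5 female replicate 2 (1.01, 0.138). Dnmt3b was no longer called without E13.5 female replicate 1 (0.98, 0.0980) or E17.5 female replicate 1 (1.05, 0.0760). Within the first and second scan day the differences were 0.90 and 1.64 for Dnmt3a and 1.38 and 0.90 for Dnmt3b. With the scan day as a block both calls were lost (adjusted p = 0.151 for Dnmt3a and 0.0814 for Dnmt3b), as they were with the slide (0.124 and 0.159). Of the probes tested, 2 of 5 for Dnmt3a and 1 of 8 for Dnmt3b were called.

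Earlier, between E10.5 and E13.5, the brightest Dnmt3b probe rose in both sexes, by 1.64 ± 0.33 in males (adjusted p = 0.00281) and by 1.32 ± 0.33 in females (adjusted p = 0.00747). In males it was the only 1 of 9 Dnmt3b probes that could be tested, and the 9 ranged from -0.42 to 1.64. In females 2 of 9 probes were tested and 1 was called, and the 9 ranged from -0.076 to 1.32. Of all genes tested, 15.9% of 10361 were called in males (10.7% higher, 5.25% lower) and 25.9% of 13529 in females (18.7% higher, 7.23% lower). Dnmt3l was not well above background in E10.5 males, and the background limit of replicate 1 (-3.58) lay above both E13.5 male levels (-4.56 and -4.33). Its signal in males was at least 1.92-fold higher at E13.5, a bound against the mean of the limits of both E10.5 replicates. Only the limit of replicate 2 (-7.20) lay below the E13.5 levels. The rise was called (limma adjusted p = 0.0191). That call was lost without E10.5 male replicate 2 (adjusted p = 0.213) and without E13.5 male replicate 1 (0.0663) or 2 (0.103). Dnmt3a rose in females, by 1.21 ± 0.38 (adjusted p = 0.0289), but in 1 of 5 tested probes, and its difference in males was -0.35 ± 0.38 (adjusted p = 0.580). The female Dnmt3a call was lost without E10.5 replicate 1 (0.88, 0.201) or without E13.5 replicate 1 (1.1, 0.153) or 2 (1.32, 0.0764). Within the first and second scan day the female differences were 1.65 and 0.78 for Dnmt3a and 0.98 and 1.66 for Dnmt3b, and the male ones 1.55 and 1.74 for Dnmt3b. The female Dnmt3b call was lost without E10.5 replicate 2 (1.14, 0.0541) or E13.5 replicate 2 (1.17, 0.0639). With the scan day as a block every call between E10.5 and E13.5 was lost, with adjusted p = 0.0639 for Dnmt3b and 0.202 for Dnmt3l in males and 0.0716 for Dnmt3b and 0.190 for Dnmt3a in females, and with the slide as a block they were lost too (0.186, 0.309, 0.192 and 0.182 in the same order).

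**Figure D2:**
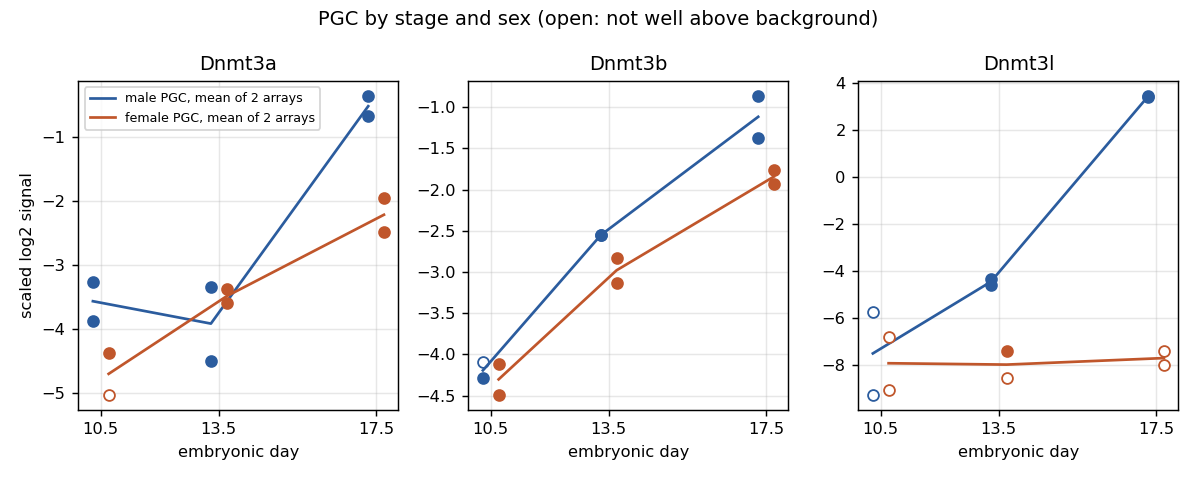
Scaled log2 signal of the 3 genes in male and female PGCs against embryonic day (10.5, 13.5 and 17.5). Points are arrays, open where not well above background, and lines join the means of 2 arrays. The male lines of Dnmt3a and Dnmt3l climb between E13.5 and E17.5 by 3.40 and 7.89 log2 units.

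The second question was whether male and female PGCs differed at a given stage. At E17.5 the male samples exceeded the female ones at least 946-fold for Dnmt3l, counted against the background limit since no female sample was well above it (adjusted p = 8.42e-08). The other 3 Dnmt3l probes gave at least 285-fold to 616-fold. Dnmt3a was 3.24-fold higher in males (1.70 ± 0.38, adjusted p = 0.00185), and all 6 of its probes were called, between 1.70 and 2.99. Dnmt3b differed by 0.72 ± 0.33 (adjusted p = 0.0751), and 0 of its 9 probes were called by limma, with a range of 0.72 to 1.06. At this stage 49.4% of 16056 genes were called, 29.5% as higher and 20% as lower in males. With the slide as a random block Dnmt3b was also called (0.72, adjusted p = 0.0398). The Dnmt3a call was lost in the deposited scaling (0.97) and with the scan day as a block (1.70, adjusted p = 0.0507), and its difference was 1.80 and 1.59 within the first and second scan day. Within these days Dnmt3b differed by 0.39 and 1.06.

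At E13.5 Dnmt3l was higher in males by 3.52 ± 0.83 (adjusted p = 0.0109), with 12.2% of 13716 genes called (4.45% higher, 7.79% lower). This call was lost without E13.5 female replicate 1 (2.96, adjusted p = 0.122), the female sample not above background, and without male replicate 2 (3.40, 0.0761). It was also lost with the slide (3.52, adjusted p = 0.0882) or the scan day (3.52, 0.190) as a block. Within the second scan day, where both sexes were well above background, the Dnmt3l difference was 3.08. Dnmt3a differed by -0.43 ± 0.38 (adjusted p = 0.530) and Dnmt3b by 0.43 ± 0.33 (adjusted p = 0.447) between males and females at E13.5. At E10.5 neither Dnmt3a (1.14 ± 0.38) nor Dnmt3b (0.11 ± 0.33) passed, with 0.0115% of 8697 genes, 1 gene, called by limma and 117 genes under an unadjusted p of 0.05. Dnmt3l could not be tested at E10.5.

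Whether the sex difference itself changed with stage was tested with an interaction term. From E13.5 to E17.5 it grew by 2.12 ± 0.54 for Dnmt3a (adjusted p = 0.00892), in a comparison with 26.2% of 16780 genes called (16.4% higher, 9.85% lower). Within the first and second scan day the growth was 1.76 and 2.49 for Dnmt3a. For Dnmt3l the term was 7.61 ± 1.17 on the signals as measured (adjusted p = 2.13e-04), which is neither an exact size nor a bound, since 0 of 2 E17.5 female and 1 of 2 E13.5 female samples were well above background. For Dnmt3b it changed by 0.30 ± 0.46 (adjusted p = 0.673). The Dnmt3a call was lost with the slide (2.12, adjusted p = 0.113) or the scan day (2.12, 0.124) as a block and in the deposited scaling (2.44). Between E10.5 and E13.5 no member passed, with -1.56 ± 0.54 for Dnmt3a and 0.32 ± 0.46 for Dnmt3b. Dnmt3l had 3.11 ± 1.17 on the signals as measured (limma adjusted p = 0.176), with no E10.5 sample well above background. Of 13826 genes, 2.66% were called (0.781% higher, 1.88% lower). In some other settings, given below, a call was gained for Dnmt3l and for Dnmt3a.

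Markers of other cells moved with sex and with stage in the PGC samples. The 9 markers of Sertoli and pregranulosa cells, the supporting cells of testis and ovary, had a summed level of 2.91 and 1.96 in E17.5 males and -2.47 and -1.56 in E17.5 females. On both arrays, 7 of 9 were well above background in E17.5 males and 3 of 9 in E17.5 females. Sox9 and Dhh, which define Sertoli cells, were well above background in both E17.5 male samples and in neither female sample, and Foxl2, which defines pregranulosa cells, reached that mark on none of the 28 arrays. At E13.5 the sums were 0.71 and -0.44 in males and -3.18 and -3.18 in females. In males they were thus higher at E17.5 than at E13.5, as were the fibroblast, blood and endothelium, Leydig, germ cell, spermatid and oocyte lists. The 5 germ cell markers summed to 3.89 and 4.17 in E17.5 males, against 3.11 and 3.40 in E13.5 males. The 3 spermatid markers summed to -2.18 and -2.40, against -7.24 and -4.50. The 4 oocyte markers had -6.80 and -5.16 in E13.5 males. The pluripotency list was lower at E17.5, from 4.06 and 4.39 in E13.5 males. The 8 fibroblast markers summed to 0.11 and 0.61 in E17.5 males, against -1.59 and -1.58 in E13.5 males, with 5 of 8 and 2 of 8 well above background on both arrays. The 5 blood and endothelium markers summed to 1.93 and 0.17 in E17.5 males, against -0.28 and -2.08 in E13.5 males, and to 4.06 and 1.5 in E17.5 females. The 3 Leydig and interstitial markers summed to -3.20 and -3.39 in E17.5 males, against -4.47 and -4.80 in E13.5 males. The 5 pluripotency markers summed to 2.93 and 1.95 in E17.5 males and to -1.91 and -2.78 in E17.5 females, and the 4 oocyte markers to -1.88 and -1.70 in males and to 1.25 and 1.27 in females. The same 9 Sertoli and pregranulosa markers summed to 2.96 and 2.94 in whole adult testis, which differed from the PGC samples in age, strain and slide. The part of other cell types in the PGC results was not tested. In such bulk samples fewer cells of a type and less RNA per cell cannot be told apart.

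Oogonia and spermatogonia were set against the latest PGC stage of the same sex and against each other. Spermatogonia had Dnmt3l at least 1046-fold higher than oogonia (adjusted p = 2.43e-08), and the other 3 probes gave at least 264-fold to 732-fold. Dnmt3a was 4.36-fold higher in spermatogonia (2.12 ± 0.38, adjusted p = 2.96e-04), with 5 of 6 probes called. Dnmt3b differed by 0.52 ± 0.33 (adjusted p = 0.207), with 0 of 9 probes called by limma. Of 18735 genes, 46.8% were called, 30.8% as higher and 16% as lower in spermatogonia. Dnmt3l and Dnmt3a were thus called, and Dnmt3b was not, as between the sexes at E17.5. The Dnmt3a call was lost in the deposited scaling (0.91). The Sertoli and pregranulosa sums were 0.26 and 0.14 in spermatogonia and -2.32 and -2.38 in oogonia, with 6 of 9 markers well above background in each. The name oogonia is that of the sample labels. The 4 oocyte markers, Zp3, Nobox, Figla and Lhx8, were all well above background in both oogonia samples. They summed to 1.99 and 2.11 there, against 1.25 and 1.27 in E17.5 female PGCs and -2.08 and -2.09 in spermatogonia. The oogonia samples shared one slide and scan day and the spermatogonia samples another, so slide, scan day and group cannot be told apart. The part of Sertoli and pregranulosa cells in the differences between spermatogonia and oogonia was not tested.

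Against E17.5 male PGCs, spermatogonia did not pass the test for Dnmt3a (-0.25 ± 0.38, adjusted p = 0.714), Dnmt3b (0.19 ± 0.33, 0.756) or Dnmt3l (-1.93 ± 0.83, 0.140), with 11.9% of 16516 genes called (5.06% higher, 6.82% lower). The Dnmt3l samples did not overlap, with 1.52 and 1.51 in spermatogonia against 3.43 and 3.46. Its SE was taken over all 14 groups, also those where it was dim, such as E10.5 males (-5.73 and -9.25). The Dnmt3l difference is therefore not shown to be absent. Against E17.5 female PGCs, oogonia did not pass for Dnmt3a (-0.68 ± 0.38, 0.246) or Dnmt3b (0.39 ± 0.33, 0.451), with 15% of 16942 genes called (4.53% higher, 10.5% lower). Dnmt3l was not tested there because both groups were under background. A single Dnmt3a probe, A_52_P30497, was called lower in oogonia (-1.75, with 16% of 20028 probes called).

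EG cells were compared with E13.5 PGCs, the sampled stage nearest the PGCs they came from, and with ES cells. Dnmt3b was 22.7-fold higher in EG cells than in E13.5 PGCs (4.51 ± 0.23, adjusted p = 1.09e-09), and all 9 probes were called, between 4.51 and 5.20. Dnmt3l was higher by 8.98 ± 0.58 (adjusted p = 1.26e-08), with 4 of 4 probes between 8.37 and 8.98 and 3 of 4 PGC samples well above background. Dnmt3a did not pass with its brightest probe (-0.62 ± 0.27, adjusted p = 0.0811) but did without E13.5 male replicate 2 (-0.91), and it was 0.033 in the deposited scaling. Of 21933 genes, 40.4% were called, 17.2% as higher and 23.2% as lower in EG cells. The samples of Dnmt3b and Dnmt3l did not overlap between EG cells and E13.5 PGCs. EG cells and E13.5 PGCs also differed in strain and scan day, which cannot be told apart from the cell type.

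Between EG and ES cells no member passed, with -0.48 ± 0.27 for Dnmt3a (adjusted p = 0.352), -0.70 ± 0.23 for Dnmt3b (0.0950) and 0.41 ± 0.58 for Dnmt3l (0.763). Of 23089 genes, 4.9% were called (3.34% higher, 1.55% lower). All EG samples shared a slide and scan day and all ES samples another, so slide, scan day and cell type cannot be told apart. With the slide as a random block no gene was called. Dnmt3b was called lower in EG cells without female EG replicate 1 (-0.92). Between male and female lines, a contrast chosen after the data were examined, no member passed in EG or ES cells. For Dnmt3l the male minus female difference was -1.12 ± 0.83 in EG cells (adjusted p = 0.796, 0.681% of genes called) and 0.54 ± 0.83 in ES cells (adjusted p = 0.864, 2.97% called). Male and female samples did not overlap, with 2.20 and 2.22 against 3.29 and 3.38 in EG cells. In ES cells they had 2.68 and 2.58 against 2.19 and 1.99. The SE of Dnmt3l was taken over all 14 groups, also those where it was dim.

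GS cells and whole testis were compared with spermatogonia. In GS cells Dnmt3l was 50.2-fold lower (-5.65 ± 0.83, adjusted p = 1.86e-04) and Dnmt3a 6.39-fold lower (-2.68 ± 0.38, 1.60e-04), while Dnmt3b was 2.03-fold higher (1.02 ± 0.33, 0.0319). Of 25865 genes, 23.1% were called, 10.8% as higher and 12.3% as lower in GS cells. All 4 Dnmt3l probes and 5 of 6 Dnmt3a probes were called lower, and 1 of 9 Dnmt3b probes was called higher, with all 9 between 1.02 and 1.36. The Dnmt3b call was lost without any one of the 4 samples, GS replicate 1 or 2 or spermatogonia replicate 1 or 2 (0.88 to 1.16). With the slide as a random block the Dnmt3a call was also lost (-2.68, adjusted p = 0.0627). The 2 GS samples agreed least of all groups (r = 0.91), and their 8 fibroblast markers summed to 4.53 and 1.15, with 8 of 8 well above background, against 0.83 and 0.68 in spermatogonia, with 5 of 8 on both arrays. GS replicate 1, the sample with the higher fibroblast sum, had Dnmt3l at -3.69, Dnmt3a at -3.69 and Dnmt3b at -0.05, and GS replicate 2 had -4.58, -3.19 and 0.23. The part of such cells in the differences was not tested.

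Whole testis was lower than spermatogonia for all 3 genes. Dnmt3a was 10.8-fold lower (-3.43 ± 0.38, adjusted p = 2.47e-06), Dnmt3b 4.31-fold lower (-2.11 ± 0.33, 6.02e-05) and Dnmt3l 7.81-fold lower (-2.96 ± 0.83, 0.00769). Of 28644 genes, 43.8% were called, 24.8% as higher and 19% as lower in testis. All 6 Dnmt3a and 4 Dnmt3l probes and 5 of 9 Dnmt3b probes were called. The Dnmt3l call was lost without testis replicate 2 (-2.78, adjusted p = 0.0527) and with the slide as a random block (-2.96, 0.0788). Testis is a mixed tissue in these data, and the 3 spermatid markers summed to 4.69 and 4.76 there against -2.47 and -2.76 in spermatogonia. The 9 Sertoli and pregranulosa markers summed to 2.96 and 2.94 in testis and to 0.26 and 0.14 in spermatogonia, and the part of the cell mixture in these differences was not tested. GS cells and testis shared a slide and a scan day, and no spermatogonia sample had that slide or day. Strain also differed from spermatogonia, so slide, scan day, strain and group cannot be told apart.

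**Figure D3:**
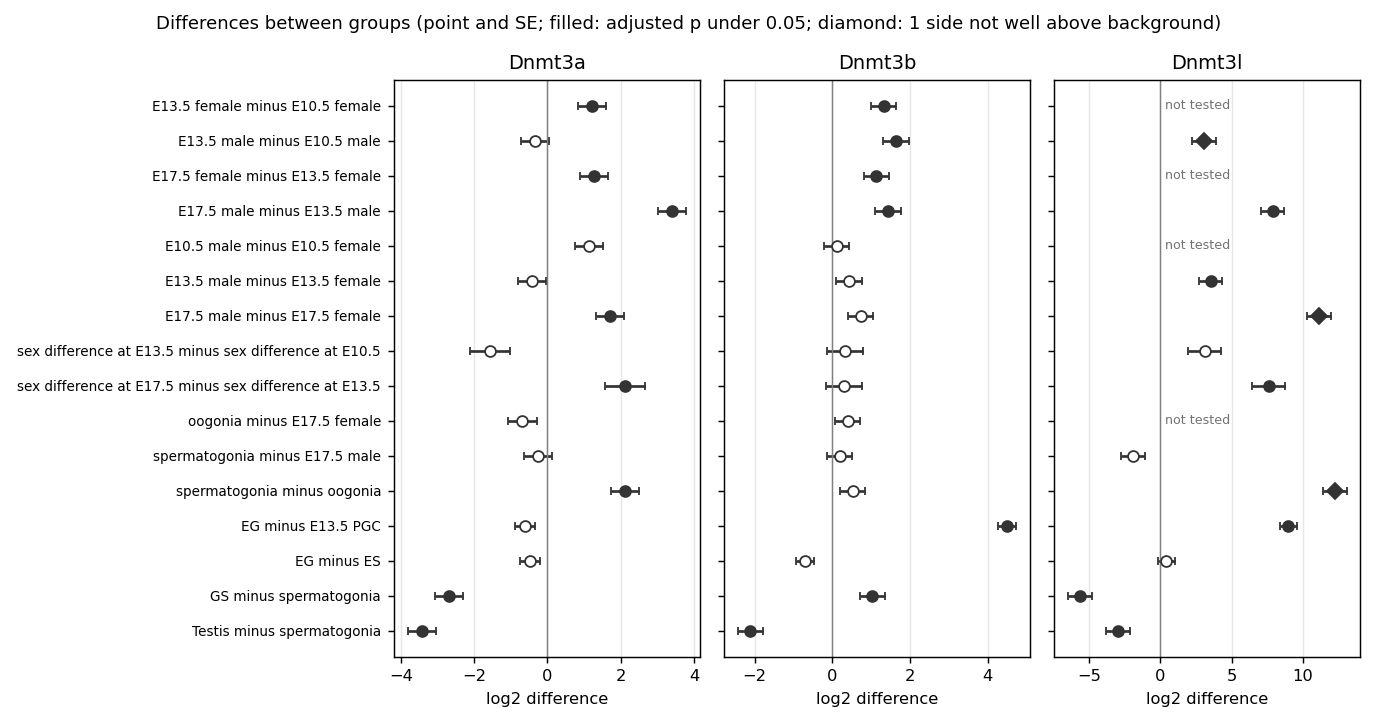
Log2 differences of the brightest probe of each gene in 16 comparisons, with SE bars. Filled symbols passed an adjusted p of 0.05, diamonds have one side not well above background, and comparisons without a test are marked. The differences of Dnmt3b are highest for EG cells against E13.5 PGCs (4.51), and those of Dnmt3a for E17.5 against E13.5 males (3.40).

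The probes of a gene mostly ran alike over the 14 groups, with r of 0.97 to 0.99 between the brightest Dnmt3b probe and the others. Among the Dnmt3a probes 3 had r of 0.96 to 0.99 with the brightest, probe A_52_P30497 had 0.81 and probe A_52_P169048 had 0.53. Probe A_52_P169048 departed from the brightest probe upward in ES and male EG cells and downward in testis, oogonia and E17.5 female PGCs. Relative to its own 14-group mean it stood at 1.82 in the male ES line, 1.14 in the female ES line and 1.04 in male EG cells, and at -0.09 in female EG cells. The brightest Dnmt3a probe, relative to its own mean, stood at -0.16 in the male ES line, -0.95 in the female ES line and -1.14 in male EG cells. Both probes were raised in E17.5 male PGCs, by 2.57 for A_52_P169048 and 2.77 for the brightest, and in spermatogonia, by 1.98 and 2.52. In E17.5 female PGCs A_52_P169048 was at -0.42 and the brightest at 1.07, in oogonia they were at -1.27 and 0.39, and in testis at -2.84 and -0.91.

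Probe A_52_P169048 was the 1 of 6 Dnmt3a probes called in EG cells against E13.5 PGCs, where it was higher by 1.04 ± 0.40 (adjusted p = 0.0448, with 40.6% of 25670 probes called). Its samples had -2.71 and -2.90 in male EG cells and -3.49 and -4.39 in female EG cells, against -4.36 and -3.24 in E13.5 males and -5.25 and -4.81 in E13.5 females. The EG and PGC samples overlapped. The 6 probes were assigned to 2 RefSeq transcripts, 4 to one and 2 to the other, and A_52_P169048 shares its transcript with A_52_P30497 and with 2 probes that had r of 0.96 and 0.97 with the brightest. Probe positions within the transcripts and cross-hybridisation to other transcripts were not tested, among them the Dnmt3b neighbour that RefSeq lists as Dnmt3b-ps1 with the synonym Dnmt3c, for which no probe was matched.

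**Figure D4:**
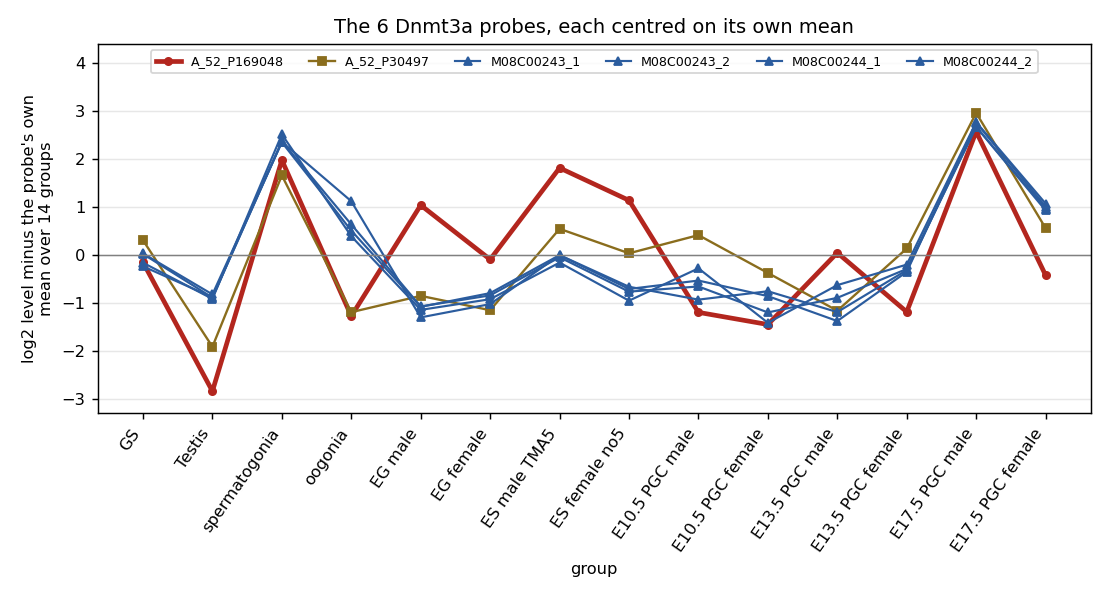
Group means of the 6 Dnmt3a probes, each relative to its own mean over the 14 groups, in log2 units. Lines are probes, with A_52_P169048 thick and red and A_52_P30497 in brown squares. In the male ES line A_52_P169048 stands at 1.82 and the other 5 probes between -0.16 and 0.55.

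The other genes of the pathway were taken from 5 lists. Here and for the marker lists, a gene counts as on the array only where a probe was matched to its symbol. Only 16589 of 43289 probes were matched, so the array may hold unmatched probes for the other list genes. The maintenance list, with 2 of 6 genes on the array, holds Dnmt1, which copies methylation at replication, and Uhrf1, which recruits it. Neither passed between E13.5 and E17.5 in males or females, where 41.8% and 32.6% of all genes were called. In other scalings 0 to 1 fell in each sex, and 0 to 1 rose in females. At E17.5 Uhrf1 was lower in males than in females (-2.37 ± 0.41, adjusted p = 2.04e-04), and it was also lower in spermatogonia than in oogonia (-1.47 ± 0.41, 0.00704). Of all genes, 20% and 16% were called lower there, and every other scaling also gave 1 lower gene of this list. Against E13.5 PGCs, EG cells had lower Dnmt1 (-1.73 ± 0.35, limma adjusted p = 8.88e-04) and higher Uhrf1 (1.00 ± 0.29, 0.0108). Of all genes, 23.2% were lower and 17.2% higher, and in other scalings 0 to 1 of this list was lower and 1 higher. Uhrf1 thus differed between the sexes in the direction opposite to Dnmt3a and Dnmt3l.

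The list of histone marks that DNMT3 proteins read or are blocked by had 11 of 18 genes on the array. In males between E13.5 and E17.5, 4 of 10 tested rose and 1 fell, beside 29.6% and 12.2% of all genes, and in other scalings 1 to 4 rose and 0 to 4 fell. Kdm1b, a histone H3K4 demethylase needed for imprints in mouse oocytes, rose by 4.82 ± 0.50 in males (adjusted p = 3.78e-06), to 2.14 against -2.67 at E13.5, and by 2.40 ± 0.50 in females (0.00168). Cxxc1, a CpG-binding part of an H3K4 methyltransferase complex, rose by 1.87 ± 0.31 in males (2.11e-04), and Trim28, a corepressor that keeps imprints, fell by 1.37 in males (0.00298) and by 1.26 in females (0.00656). The median over the 10 genes was 0.09 log2 units, beside 0.51 for all genes tested in males. At E17.5 3 of 11 were higher in males and 2 lower, beside 29.5% and 20% of all genes, and in other scalings 0 to 3 were higher and 2 to 5 lower. Among them were Cxxc1 at 2.12 ± 0.31 (4.56e-05) and Ehmt1, an H3K9 methyltransferase, at -1.33 ± 0.33 (0.00375). Spermatogonia against oogonia gave 4 higher and 2 lower of 11, beside 30.8% and 16% of all genes, while every other scaling gave fewer higher, 0 to 3, and 2 to 4 lower. Among them were Cxxc1 at 2.96 ± 0.31 (1.42e-06) and Kdm1b at -1.58 ± 0.50 (0.0158). Kdm1b was therefore higher in males at E17.5 (1.26 ± 0.50, 0.0459) and lower in spermatogonia than in oogonia.

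The list of piRNA-directed methylation, the small RNA route that guides de novo methylation to transposons in fetal male germ cells, had 8 of 15 genes on the array. Between E13.5 and E17.5, 5 of 8 rose in males and none fell, with a median of 2.21 beside 0.51 for all genes, and 3 of 8 rose in females, with a median of 0.73 beside 0.11. Of all genes, 29.6% rose in males and 18.1% in females. In other scalings the number that rose was 2 to 5 in males and 0 to 4 in females. Piwil2, a piRNA-binding protein, rose by 2.54 ± 0.28 in males (adjusted p = 6.47e-06) and by 1.84 ± 0.28 in females (1.34e-04). Morc1, a nuclear factor needed for transposon silencing in male mouse germ cells, was the 1 of 8 called between the sexes at E17.5, higher in males by 4.16 ± 0.53 (1.41e-05), and it was higher in spermatogonia than in oogonia by 4.42 ± 0.53 (6.09e-06). In EG cells against E13.5 PGCs, 6 of 8 were lower and 2 higher, beside 23.2% and 17.2% of all genes, with a median of -4.22 beside -0.19. Mov10l1, a piRNA-loading helicase, was lower (-6.16 ± 0.47), as was Fkbp6, a chaperone partner of the pathway (-5.91 ± 0.38), whereas Morc1 was higher in EG cells by 3.20 ± 0.37. Dnmt3b and Dnmt3l were thus higher in EG cells than in PGCs while most of the piRNA list was lower.

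The list of DNA oxidation and base repair had 6 of 10 genes on the array. None of 4 tested was called by limma between E13.5 and E17.5 in males or between the sexes at E17.5. Of all genes, 41.8% and 49.4% were called there. In other scalings 0 to 1 rose and 0 to 1 fell in males, and 0 to 2 were lower in males than females at E17.5. In EG cells against E13.5 PGCs, 2 of 6 were higher and 1 lower, beside 17.2% and 23.2% of all genes. The median was -0.075 beside -0.19. Among them Tdg, a glycosylase that removes oxidised methylcytosine, was higher by 2.93 ± 0.29 (adjusted p = 1.02e-06). All 6 factors of the last list, PGC genes linked to methylation, were on the array. Of these, 5 of 6 fell between E13.5 and E17.5 in males (median -2.43 beside 0.51) and 5 of 6 in females (median -5.46 beside 0.11), while 12.2% and 14.5% of all genes fell. In other scalings 3 to 5 fell in males and 4 to 5 in females. Dppa3, which protects maternal methylation in the zygote, fell by 5.24 in males (1.86e-07). Tfap2c, a PGC transcription factor, was higher in E17.5 males than females by 4.53 ± 0.50 (3.81e-06), and Prdm1, the PGC specification factor, at least 7.70-fold (2.42e-05). In spermatogonia against oogonia, 5 of 6 were higher, beside 30.8% of all genes, and Dppa3 was lower (-7.77 ± 0.37, 8.07e-10).

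**Figure D5:**
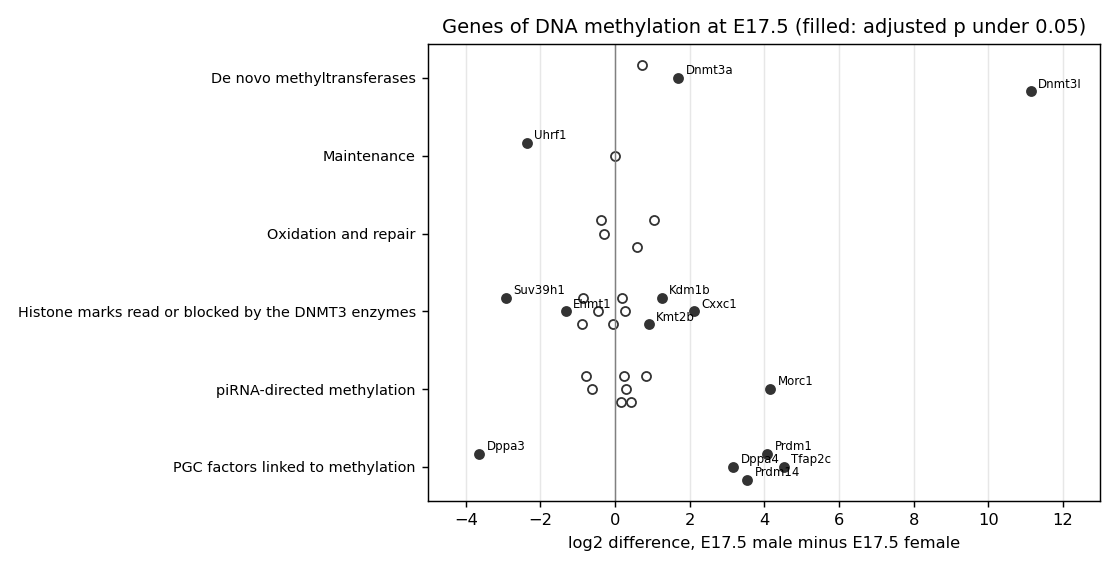
Log2 differences of E17.5 male minus E17.5 female PGCs for Dnmt3a, Dnmt3b, Dnmt3l and the tested genes of the 5 pathway lists, with each point 1 gene. Filled points passed an adjusted p of 0.05 and are named, and genes with females under background, such as Dnmt3l, are drawn at the measured difference. Morc1 (4.16) lies highest in its list, and Uhrf1 (-2.37) and Dppa3 (-3.63) lie below 0.

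The genes whose group means ran most like those of each member were named from 9020 genes, over 14 groups, by Pearson's r as a description. For Dnmt3l they were Clstn3 (0.98), Icosl (0.95), Slc12a8 (0.94), Tmem54 (0.94) and Stc2 (0.93). For Dnmt3b they were Plin3 (0.95), F2rl1 (0.92), Rab1a (0.92), Pir (0.91) and Armcx1 (0.90). For Dnmt3a they were Suds3, Cbln1, Thbs4 and Prkcd, each with 0.91. The 14 points share arrays, slides and the scaling of each array, and no list of one member held a gene of another.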

How the data were processed

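Total RNA was hybridised to single-colour Agilent arrays, and per the file headers Feature Extraction 10.5.1.1 gave a processed signal, an intensity already adjusted for background, which was used as deposited. The deposited value table holds log2 values that equalled log2 processed signal minus each array's median. Control spots (1417) and non-uniform probes (514) were removed. Levels were log2 processed signal minus the 75th percentile of 7227 probes well above background on all arrays. Symbols came from a RefSeq table of GRCm38.p6 through the probes' accessions, which matched 16589 probes to 13019 symbols. Probes without a symbol were kept under their own identifier and counted as genes. The brightest probe stood for a gene.

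One model of 14 group means was fitted with limma 3.58.1 in R 4.3.3 (data.table version 1.17.8) over all 28 arrays, with 14 residual degrees of freedom. A gene was tested where some compared group had it well above background on each of its arrays, with Benjamini-Hochberg adjustment over them and a threshold of 0.05. Figures were drawn with matplotlib 3.10.9 in Python 3.11.15. The fit was tested on simulated data. Where no array of one side was well above background, the fold is a lower bound. The bound takes, for each dim array, the higher of its lowest well-above-background signal and the probe's own signal.

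The alternatives were normexp (offset 50, on median signals, since mean signals were not among the columns used), a percentile over all probes, quantile normalisation, the deposited values, no filter, the next-brightest probe, a replicate block, slide and scan day as blocks, slide as a random block, and leaving out each array. In PGCs, same-numbered samples deviated together (r = 0.31 to 0.79 over 6165 genes) and shared a scan day. In the other groups r was -0.16 to 0.19, and the samples share only a number. Named genes were the 3 members in every comparison, at most 2 called genes per direction from each list, and the 5 genes most like each member among those well above background in at least 3 groups with a range of at least 2 log2 units, of which 1 is not reported here. The members, lists and tests were chosen with earlier results of these data known.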

Additional observations from a re-analysis of the deposited data

Results flagged for a closer look

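The male minus female difference of Dnmt3a was 2.12 ± 0.54 log2 units larger at E17.5 than at E13.5 in PGCs by the interaction test (adjusted p = 0.00892), a call lost with the slide (adjusted p = 0.113) or the scan day (adjusted p = 0.124) as a block and in the deposited scaling. For Dnmt3l the same term was 7.61 ± 1.17 on the signals as measured (adjusted p = 2.13e-04), but neither E17.5 female sample and only 1 of 2 E13.5 female samples was well above background, so its size is not a measured difference. For Dnmt3l the male minus female difference was negative in EG cells and positive in ES cells in every sample, and the difference between these differences, -1.66 ± 1.17, did not pass (adjusted p = 0.691, with 1.25% of genes called). No group had the 4 samples needed to look for a sample far from the others.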

How the results depend on the processing

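Of 24 called member results 9 kept their call in all settings run: Dnmt3a and Dnmt3l in E17.5 against E13.5 males, Dnmt3l between the sexes at E17.5, in its interaction and in spermatogonia against oogonia, Dnmt3b and Dnmt3l in EG cells against E13.5 PGCs, Dnmt3l in GS cells and Dnmt3a in testis against spermatogonia. No called result reversed. Values are log2 differences. In E13.5 against E10.5 females the call was lost for Dnmt3a and Dnmt3b with normexp (0.55 and 0.60), the all-probe percentile (0.84 and 0.95), quantile normalisation (0.84 and 0.87), the deposited values (1.71 and 1.82), slide (1.57 and 1.1) and scan day (1.21 and 1.32) as blocks, and for Dnmt3a with no filter (1.21) and the next-brightest probe (0.44). In E13.5 against E10.5 males it was lost for Dnmt3b with the deposited values (1.67), slide (1.42) and scan day (1.64), and for Dnmt3l with no filter (3.05), slide (1.27) and scan day (3.05). In E17.5 against E13.5 females it was lost for Dnmt3a with the all-probe percentile (1.11), quantile (1.14), deposited values (0.78), next-brightest probe (1.28), slide (1.83) and scan day (1.27), and for Dnmt3b with the deposited values (0.65), next-brightest probe (0.74), slide (1.14) and scan day (1.14). In males Dnmt3b lost it with the deposited values (1.26) and slide (1.44). Between the sexes Dnmt3l at E13.5 lost it with slide (3.52) and scan day (3.52), Dnmt3a at E17.5 with the deposited values (0.97) and scan day (1.70), and the Dnmt3a interaction with the deposited values (2.44), slide (2.12) and scan day (2.12). Also lost were Dnmt3a in spermatogonia against oogonia with the deposited values (0.91), Dnmt3b in testis with the next-brightest probe (-1.45), Dnmt3b in GS cells with the all-probe percentile (0.89), deposited values (1.16), next-brightest probe (1.26) and random slide block (1.02), and with that block Dnmt3a in GS cells (-2.68) and Dnmt3l in testis (-2.96).

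Calls gained were Dnmt3b between the sexes at E17.5 with normexp (0.69), quantile (0.79) and the random slide block (0.72). With E13.5 against E10.5, the sex interaction gained one for Dnmt3l (1.54 with normexp, 4.39 with quantile, 3.11 with the random block) and for Dnmt3a (-1.56 with the random block). Normexp also gained Dnmt3l in spermatogonia against E17.5 males (-1.63) and Dnmt3b in EG against ES cells (-0.75). Uncalled results that reversed were Dnmt3b between the sexes at E10.5 (-0.086 with normexp, -0.021 with the all-probe percentile, -0.47 with the deposited values), Dnmt3b in the later interaction and in spermatogonia against oogonia with the all-probe percentile (-0.024 and -0.11), Dnmt3a between the sexes at E10.5 (-0.17) and Dnmt3b in oogonia against E17.5 females (-0.29) with the next-brightest probe, and Dnmt3a in E13.5 against E10.5 males with the slide block (0.00403). With the deposited values Dnmt3b reversed between the sexes at E13.5 (-0.62) and E17.5 (-0.00605), in the earlier interaction (-0.15) and in spermatogonia against oogonia (-0.69), and Dnmt3a in oogonia against E17.5 females (0.12), spermatogonia against E17.5 males (0.070) and EG cells against PGCs (0.033). The range of group means moved to 3.17, 6.19 and 8.97 for Dnmt3a, Dnmt3b and Dnmt3l with normexp, and to 8.41 for Dnmt3b with the deposited values. The cause was not tested in any of these cases.

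Leaving out 1 array at a time gave ranges, with calls lost, gained or reversed, of 0.88 to 1.54 (Dnmt3a) and 1.14 to 1.51 (Dnmt3b) in E13.5 against E10.5 females, 1.01 to 1.54 and 0.98 to 1.29 in E17.5 against E13.5 females, 1.29 to 4.81 (Dnmt3l) and -0.93 to 0.23 (Dnmt3a) in E13.5 against E10.5 males, 2.96 to 4.08 (Dnmt3l) and -1.0 to 0.15 (Dnmt3a) between the sexes at E13.5, -0.079 to 0.30 (Dnmt3b) between the sexes at E10.5, and 1.34 to 4.87 (Dnmt3l) and -2.14 to -0.99 (Dnmt3a) in the earlier interaction. The ranges were -0.91 to -0.33 for Dnmt3a in EG cells against PGCs, -0.92 to -0.49 for Dnmt3b in EG against ES cells, -0.065 to 0.44 for Dnmt3b in spermatogonia against E17.5 males, 0.88 to 1.16 for Dnmt3b in GS cells and -3.15 to -2.78 for Dnmt3l in testis. Calls were gained without E10.5 male replicate 1 (Dnmt3l, 4.87) and E13.5 male replicate 1 (Dnmt3a, -2.14) in the earlier interaction.

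The replicate block changed no call of the 44 member results (Dnmt3a in E17.5 against E13.5 males 3.40). The highest Dnmt3l group was E17.5 male PGCs with the brightest probe, except with the all-probe percentile and the deposited values, where it was female EG cells, as it was for the other 3 Dnmt3l probes, and the highest Dnmt3a group was E17.5 male PGCs except with the deposited values, where it was spermatogonia. Another scaling moved the share of higher calls by over 10 points in 15 of 16 comparisons, with 70.8% higher in E17.5 against E13.5 males here and 46.6% to 86.2% in others, and 59.6% and 46.2% to 53.1% between the sexes at E17.5. The median of all genes tested lay between -0.27 and 0.51 here and between -1.18 and 0.88 in other scalings. Groups of 2 arrays and dim signals limit precision, and a dim Dnmt3l has no measured level in E10.5 PGCs, E17.5 female PGCs or oogonia.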
